A study of Mus musculus with 9 samples.

Results

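Fatty acid oxidation and ketone body metabolism were examined through 37 genes, listed by symbol with earlier results of these data known. The symbols were matched to the gene name that the array design gives each probe. The 37 genes were all measured, with 51 probes, among 31829 genes and 39429 probes in all. The mouse eye had been cut into 3 neighbouring layers with a laser: the choroid (CH), a vascular and connective tissue layer, the retinal pigment epithelium (RPE), a single layer of pigmented cells, and the photoreceptors (PR), mostly rods. Every sample, and the reference, came from female C57BL/6 mice labelled as 6 months old, within 2 weeks (the study's methods give a slightly younger age and the substrain C57BL/6JOlaHsd), the labels name no treatment or engineered allele, and each of the 3 samples per tissue took one whole eye. Each sample was labelled with Cy5 and hybridised on its own Agilent array against the same Cy3-labelled RNA of mouse RPE and choroid together, so a value is a log2 ratio of Cy5 over Cy3, that is, of the tissue over this reference. A log2 ratio below 0 means less signal than in the reference, not an absent transcript. Dyes were not swapped, so a dye effect of a probe is in all 9 arrays and leaves differences between tissues.

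In mitochondria, fatty acids are oxidised in a cycle. Acyl-CoA synthetases activate the fatty acid, carnitine palmitoyltransferases and a carrier bring it across the mitochondrial membranes, acyl-CoA dehydrogenases of different chain-length preference start each turn and pass electrons to the electron transfer flavoprotein, and a hydratase, a dehydrogenase and a thiolase complete it. Peroxisomes run a similar cycle on very long and branched chains. The acetyl-CoA made can enter the citric acid cycle or be turned into ketone bodies, which other cells burn. The RPE takes up the shed, lipid-rich tips of photoreceptor outer segments daily and is known to oxidise their fatty acids and to release ketone bodies towards the retina, whereas photoreceptors are known for high use of glucose.

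Promoters are shown for 3 genes because their levels, described below, had different orders among the tissues: Acadl was far lowest in PR, Acadm was highest in PR and Acsl6 was highest in RPE. Each window holds 250 bases before and 50 bases after a RefSeq start site (GRCm38.p6), read in the direction of the gene. They are Acadl at chr1:66863260-66863559 on the minus strand, Acadm at chr3:153944594-153944893 on the minus strand and, as 1 of its 3 windows, Acsl6 at chr11:54303574-54303873 on the plus strand. Capitals mark the letters AGGTCA on either strand, a half-site recognised by nuclear receptors such as the peroxisome proliferator-activated and oestrogen-related receptors.
Acadl: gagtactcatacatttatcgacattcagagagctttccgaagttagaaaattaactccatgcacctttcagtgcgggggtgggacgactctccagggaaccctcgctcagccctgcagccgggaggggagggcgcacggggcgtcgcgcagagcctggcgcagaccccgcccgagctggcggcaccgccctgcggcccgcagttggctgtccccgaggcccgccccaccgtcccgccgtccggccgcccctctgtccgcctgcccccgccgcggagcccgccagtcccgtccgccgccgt
Acadm: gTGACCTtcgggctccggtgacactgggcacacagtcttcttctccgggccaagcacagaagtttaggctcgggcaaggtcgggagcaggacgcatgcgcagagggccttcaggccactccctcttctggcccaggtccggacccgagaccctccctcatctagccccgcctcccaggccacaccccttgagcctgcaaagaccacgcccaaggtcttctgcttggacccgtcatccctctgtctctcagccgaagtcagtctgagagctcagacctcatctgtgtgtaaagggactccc
Acsl6: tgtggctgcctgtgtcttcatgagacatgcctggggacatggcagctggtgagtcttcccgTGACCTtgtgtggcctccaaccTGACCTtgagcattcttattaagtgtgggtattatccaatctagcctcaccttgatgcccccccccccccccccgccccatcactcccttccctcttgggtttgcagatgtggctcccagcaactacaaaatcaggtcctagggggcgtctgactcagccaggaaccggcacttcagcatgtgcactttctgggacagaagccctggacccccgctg
The Acadm window held 1 such half-site, 249 bases before the start site, and the Acsl6 window held 2, at 189 and 167 bases before it. The Acadl window held none of these letters. RefSeq windows were at hand for 31 of the 37 genes (36 windows), and 6 of these windows (16.7%), of Acadm, Acadvl, Acsl6, Cpt1a, Cpt1c and Echs1, held AGGTCA, next to 16.3% of all 32851 windows. The longer TCAAGGTCA, which contains AGGTCA, was found in the Acsl6 window alone among them and in 0.423% of all windows. The Acsl6 window was chosen from its 3 windows for holding TCAAGGTCA, so a half-site there was fixed by this choice. A match is a description of the letters and not of binding.

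The 3 tissues were identified by fixed marker lists, and the markers also showed how far the layers were mixed. All 10 rod genes were higher in PR than in RPE and in CH. Their mean log2 ratio was 3.44 to 3.63 in PR, -0.74 to 0.17 in RPE and -1.34 to -0.52 in CH, and their summed normalised Cy5 signal between 2821630 and 4071159, 1007987 and 1312266, and 663683 and 1037272. All 10 were well above background on every array, so rod transcripts were measured in each layer. The 9 RPE genes had a mean log2 ratio of 1.731 to 2.141 in RPE, 0.147 to 1.020 in CH and -2.715 to -2.614 in PR, with 8 of 9 higher in RPE than in either other tissue. The exception was Best1, whose brightest probe was not well above background on any CH array. Their summed signal was between 2219824 and 2406473 in RPE, between 1514270 and 1975941 in CH and between 328401 and 440579 in PR, with some saturated spots among the RPE and rod markers, so that the sums are lower bounds. All 6 fibroblast genes were highest in CH and lowest in PR, with mean log2 ratios of 1.27 to 1.69 in CH, -1.14 to -0.80 in RPE and -4.99 to -4.41 in PR. All 6 cone genes were higher in PR than in the other layers, and all 5 genes each of pericytes and pigment cells were higher in both other layers than in PR, with 3 of 5 each higher in CH than in RPE and 1 pigment cell gene, Tyr, higher in RPE than in CH. All 7 endothelial genes were higher in RPE and in CH than in PR. Against PR, 4 of 6 immune cell, 3 of 5 Müller glia, 2 of 4 red blood cell, 1 of 3 slow muscle and 2 of 7 inner retina genes were higher in RPE. Between 62.1% and 91.7% of spots were well above background in Cy5, highest on the array of RPE replicate 2, which stood apart from the other 8 in this measure (up to 71.2%). In these bulk samples, fewer cells of a type and less RNA per cell cannot be told apart.

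Most of the genes were lowest in PR. The mean log2 ratio was lowest in PR for 26 of 37 genes, in CH for 10 and in RPE for 1, which was Cpt1b, and it was highest in RPE for 22, in PR for 9 and in CH for 6. Among all genes, 39.2% were lowest in PR, 37.3% in CH and 23.5% in RPE, and 28.1% were highest in RPE. Of the 37 genes, 37 in CH, 36 in RPE and 36 in PR were well above background on all 3 arrays, and no probe of theirs was saturated.

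**Figure D1:**
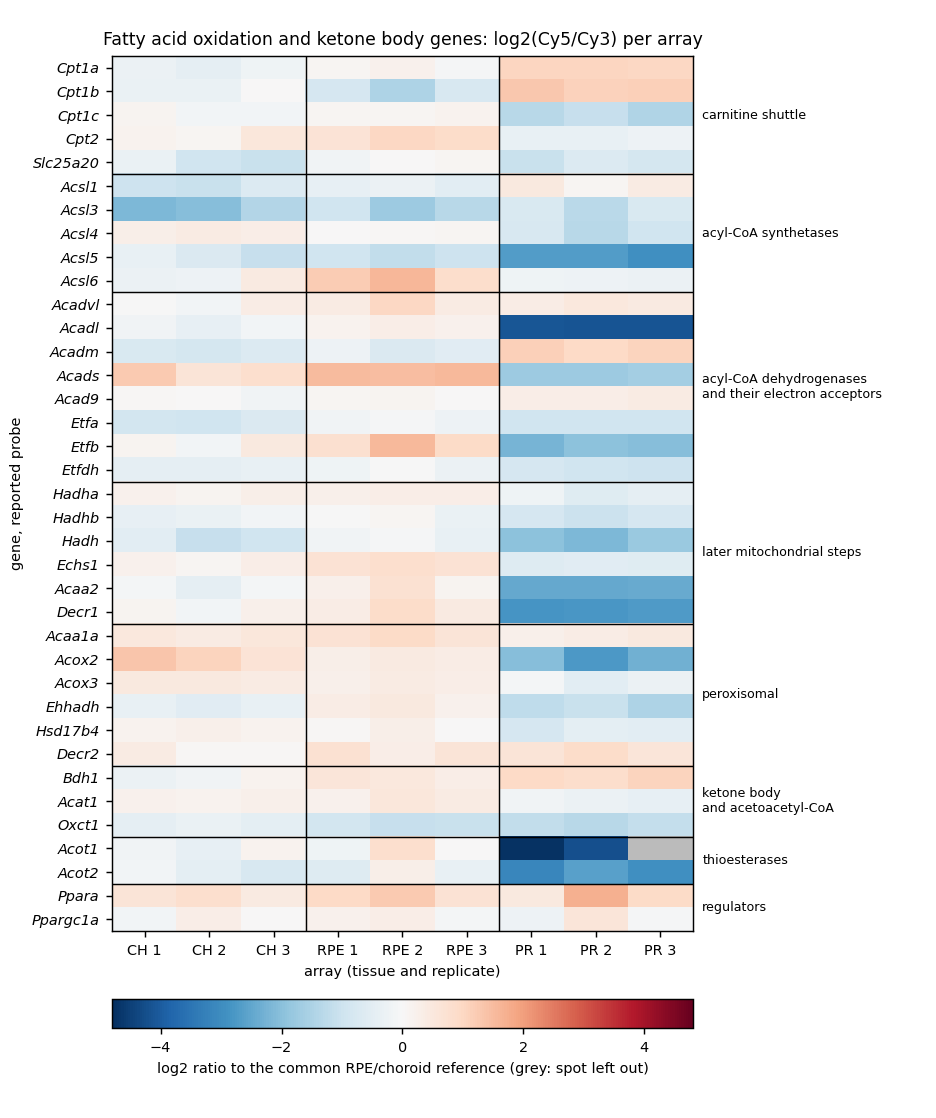
Log2 ratio of Cy5 over Cy3 for the reported probe of each of the 37 genes (rows, by role) on the 9 arrays (columns: CH, RPE and PR, replicates 1 to 3), with red above and blue below the common reference and grey for a spot that was left out. The darkest blue cells are Acadl and Acot1 on the PR arrays, between -4.76 and -4.10.

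Differences were tested with limma across all probes, with Benjamini-Hochberg adjustment over all of them, and read in 2 ways: an adjusted p below 0.05 with no minimum of fold, and the cut-offs of the study's methods, a fold above 2.5 with an adjusted p below 0.01. Between RPE and PR, 25 of 37 genes (67.6%) were higher in RPE at an adjusted p below 0.05, next to 25.2% of all genes, and 6 (16.2%) were higher in PR, next to 25.1%. At the study's cut-offs 13 (35.1%) were higher in RPE, next to 10.9% of all genes, and 2 (5.41%) were higher in PR, next to 5.19%. The median difference of the 37 genes was 0.80 on the log2 scale, whereas that of all genes was -0.005. The difference ranged from -2.21 for Cpt1b to 4.69 for Acot1. Markers of the RPE, endothelium, fibroblasts, pericytes and pigment cells, given above, were higher in RPE than in PR too, and their part in the result was not tested.

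Between CH and PR, 22 genes (59.5%) were higher in CH, next to 26.1% of all genes, and 8 (21.6%) were higher in PR, next to 27.5%. The study's cut-offs left 10 (27.0%) higher in CH, next to 12.7%, and 3 (8.11%) higher in PR, next to 6.01%. The median difference was 0.59 over the 37 genes and -0.05 over all genes. Both comparisons with PR use the same 3 PR arrays.

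Between RPE and CH the differences were smaller. At an adjusted p below 0.05, 14 genes (37.8%) were higher in RPE, next to 10.3% of all genes, and 3 (8.11%), Cpt1b, Acox2 and Oxct1, were higher in CH, next to 12.2%. The count of 14 depended on the normalization: with each array centred on its median in place of loess, 1 gene (Acsl6) was higher in RPE and 3 were higher in CH, and in the authors' own series table the counts were 1 and 1. The other 13 genes kept their sign but not the call under both settings. Leaving out CH replicate 2 reduced the 14 to 7, and without RPE replicate 2, 9 of the 14 kept the call and Decr2 gained it. Of all 39429 probes, 4401 were higher in RPE and 4449 in CH after loess, and 770 and 4364 after median centring. The counts were 728 and 1763 of 39285 probes in the series table. They were 2458 and 3109 of 39424 without CH replicate 2, and 3799 and 3706 of 39421 without RPE replicate 2. Acadl, Acads, Etfa, Etfb, Echs1, Ehhadh and Acsl6 kept the call whichever array was left out, whereas Cpt1a, Cpt2, Slc25a20, Hadh, Acaa2, Bdh1 and Acsl1 lost it without CH replicate 2. At the study's cut-offs 0 of the 37 genes differed in either direction at the reported probe, next to 0.179% of all genes higher in RPE and 1.74% higher in CH, while at an unadjusted p below 0.05 limma gave 18 higher in RPE and 3 higher in CH. Acsl6, at its other probe, passed those cut-offs. The median difference was 0.35 over the 37 genes after loess, 0.08 after median centring and 0.03 over all genes after loess. RPE markers, whose values are given above, moved with this comparison, and their part in the result was not tested.

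**Figure D2:**
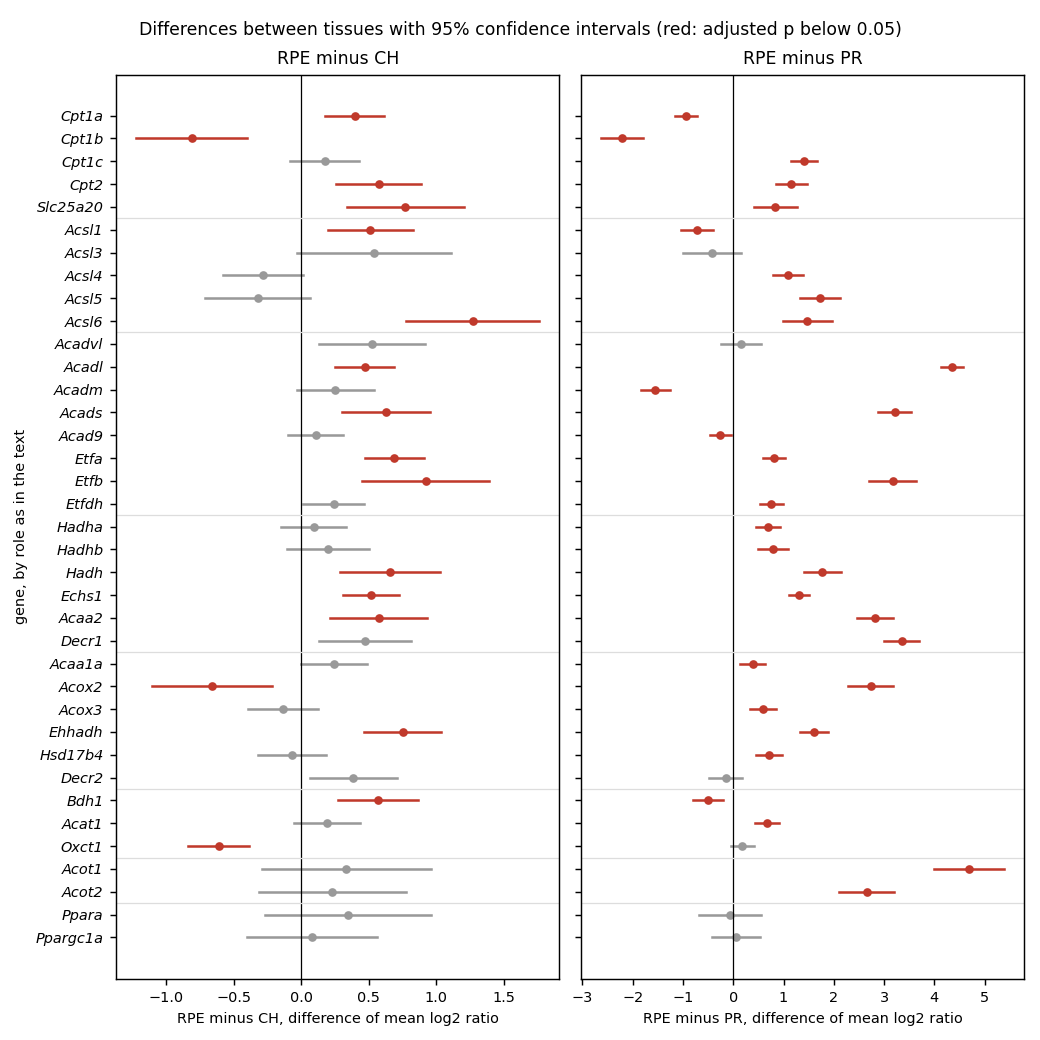
Difference of the mean log2 ratio between RPE and CH (left) and between RPE and PR (right) for each of the 37 genes, with the 95% confidence interval of the limma fit (n = 3 arrays per tissue, 2 in PR for Acot1) and red for an adjusted p below 0.05. On the left the values lie between -0.81 and 1.27, on the right between -2.21 and 4.69.

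The arrays were scanned on 3 slides, and a slide is also a scan. Slide 2 held CH and RPE replicates 1 and 3, slide 3 held replicate 2 of all 3 tissues and slide 1 held PR replicates 1 and 3. Within slide 2 the median RPE minus CH difference of the 37 genes was 0.24, and within slide 3, with 1 array a tissue, it was 0.50. All 14 genes higher in RPE and all 3 higher in CH had the same sign within both slides. This could not have come out otherwise, since RPE and CH arrays did not overlap for any of these genes. The comparisons with PR could be made within slide 3 only, where the median was 0.91 for RPE minus PR and 0.54 for CH minus PR. All 31 and all 30 genes past the test kept their sign there, which was again fixed beforehand because their arrays did not overlap. With the slide as a fixed block, 23 genes were higher in RPE than in PR and 3 were higher in PR. Over all 39429 probes this block gave 7722 and 7345, against 9783 and 9985 without it.

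In the RPE minus PR difference, the acyl-CoA dehydrogenases and their electron acceptors covered a wider range than the genes of any other role, from -1.55 to 4.35. Acadl, the long-chain enzyme, was 20.4-fold higher in RPE than in PR. Its log2 ratio was 0.18, 0.30 and 0.21 in RPE, -0.19, -0.41 and -0.13 in CH, and -4.10, -4.14 and -4.13 in PR. The 3 tissues did not overlap, and the PR arrays spread by only 0.02 (SD, n = 3). The RPE minus PR difference was 4.35 with an SE of 0.10 (limma adjusted p = 4.11e-09), and the CH minus PR difference was 3.88 (adjusted p = 2.85e-09). Acads, the short-chain enzyme, had values of 1.53, 1.48 and 1.54 in RPE, 1.25, 0.62 and 0.79 in CH and -1.73, -1.73 and -1.63 in PR. It was 9.28-fold higher in RPE than in PR (3.21 with an SE of 0.15, adjusted p = 8.79e-08).

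Acadm, the medium-chain enzyme, ran the other way. Its log2 ratio was 1.13, 0.94 and 1.07 in PR, -0.24, -0.71 and -0.56 in RPE and -0.74, -0.85 and -0.67 in CH. All PR arrays lay above all others, whereas RPE and CH overlapped. It was 2.93-fold higher in PR than in RPE (a difference of -1.55 with an SE of 0.13, adjusted p = 4.45e-06) and 3.48-fold higher in PR than in CH. Acadvl, the very-long-chain enzyme of the inner membrane, had means of 0.59 ± 0.34 in RPE, 0.44 ± 0.07 in PR and 0.07 ± 0.24 in CH (SD, n = 3), and no difference passed the test (adjusted p from 0.0598 to 0.515). The 95% interval of RPE minus PR for Acadvl reached from -0.24 to 0.54. Acad9, which also helps to assemble complex I, was 1.20-fold higher in PR than in RPE (adjusted p = 0.0388), a call that 6 of 9 fits leaving out 1 array did not keep. The difference between Acadl and Acadm in direction was at a single probe each.

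The electron transfer flavoprotein carries the electrons of all these enzymes. Etfb, its beta subunit, had a log2 ratio of 0.78, 1.55 and 0.92 in RPE, 0.14, -0.12 and 0.46 in CH and -2.24, -1.98 and -2.05 in PR. No array of one tissue reached those of another, and RPE lay 9.03-fold above PR (3.17 with an SE of 0.21, adjusted p = 9.43e-07). Etfa, the alpha subunit of the same dimer, differed far less, with -0.16, -0.05 and -0.25 in RPE, -0.89, -0.94 and -0.70 in CH and -0.95, -0.96 and -0.97 in PR. Its RPE minus PR difference was 0.80 (adjusted p = 6.89e-05), and CH and PR did not differ beyond the test (0.11, 95% interval -0.10 to 0.33). A dimmer Etfa probe gave RPE minus PR 0.27 (adjusted p = 0.226) and CH minus PR -0.72 (adjusted p = 0.00555). Etfdh, which hands the electrons on to ubiquinone, was 1.69-fold higher in RPE than in PR (adjusted p = 0.000134). Between RPE and CH, Acadl, Acads, Etfa and Etfb were among the 14 genes higher in RPE after loess, by 0.47 to 0.92, and none of these 4 passed after median centring or in the series table.

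**Figure D3:**
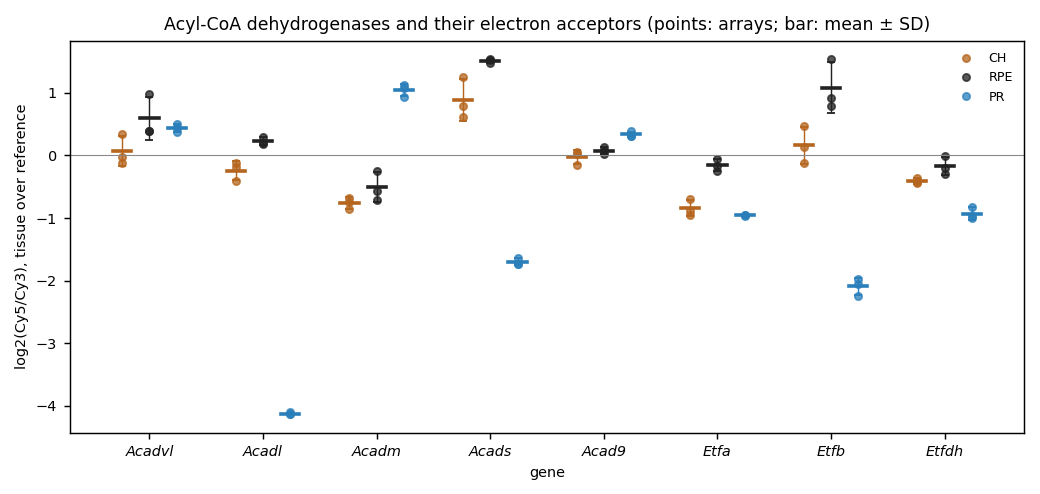
Log2 ratio of Cy5 over Cy3 of the 5 acyl-CoA dehydrogenases and of Etfa, Etfb and Etfdh on each array (points) with the mean and SD (bars) in CH, RPE and PR, n = 3 arrays per tissue. Acadl, Acads and Etfb lie far lower in PR, with means of -4.12, -1.70 and -2.09, while Acadm lies highest in PR, with a mean of 1.05.

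All 6 genes of the later mitochondrial steps were higher in RPE than in PR and in CH than in PR. Decr1, the reductase needed for polyunsaturated chains, had a log2 ratio of 0.37, 0.90 and 0.43 in RPE, 0.15, -0.12 and 0.25 in CH and -2.84, -2.80 and -2.71 in PR. RPE lay 10.2-fold above PR (3.35 with an SE of 0.15, adjusted p = 8.86e-08), and the other Decr1 probe gave 2.55. For RPE minus CH the other probe passed (0.53, adjusted p = 0.0153) and the reported one did not (0.47, adjusted p = 0.0527). Acaa2, the mitochondrial thiolase, had -2.47, -2.47 and -2.41 in PR, 0.24, 0.74 and 0.13 in RPE and -0.10, -0.41 and -0.09 in CH. This was 7.07-fold higher in RPE than in PR (adjusted p = 3.29e-07). Hadh, the short-chain hydroxyacyl-CoA dehydrogenase, was 3.42-fold and Echs1, the short-chain hydratase, 2.48-fold higher in RPE than in PR. Hadha and Hadhb, the subunits of the trifunctional protein that serves long chains, differed least, by 1.61-fold and 1.74-fold (adjusted p = 0.000412 and 0.000668). Neither Hadha nor Hadhb passed the test between RPE and CH, where the differences were 0.09 (95% interval -0.15 to 0.33) and 0.20 (-0.10 to 0.50). Hadh, Echs1 and Acaa2 were higher in RPE than in CH after loess, by 0.66, 0.52 and 0.57 (adjusted p = 0.0192, 0.00351 and 0.0284), and not after median centring.

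The carnitine palmitoyltransferase 1 genes did not share one order among the tissues. Cpt1a, the liver-type carnitine palmitoyltransferase 1 of the outer membrane, had a log2 ratio of 1.05, 1.05 and 0.99 in PR, 0.09, 0.21 and -0.05 in RPE and -0.30, -0.42 and -0.22 in CH. The 3 tissues were separate, and PR lay 1.93-fold above RPE (-0.95 with an SE of 0.10, adjusted p = 2.24e-05). Cpt1b, the muscle-type enzyme, was also highest in PR, with 1.31, 1.12 and 1.15, against -0.31, -0.31 and 0.01 in CH and -0.82, -1.47 and -0.76 in RPE. PR was 4.63-fold higher than RPE for Cpt1b at this probe (adjusted p = 4.67e-06), where RPE was well above background on 2 of 3 arrays, and the second probe gave a difference of -1.03 in place of -2.21. The CH minus PR difference was -1.40 and -0.68 at these probes. Of 9 skeletal muscle markers, whose mean log2 ratio lay between -3.23 and -2.02 on all arrays, 2 were higher in RPE than in PR and 0 were higher in PR at an adjusted p below 0.05 in limma, and 3 and 0 at an unadjusted p below 0.05. The part of muscle in the Cpt1b differences was not tested. Cpt1c, the brain-type form, was lowest in PR, with -1.32, -1.12 and -1.43, and 2.65-fold higher in RPE (a difference of 1.41, adjusted p = 3.69e-06, and 0.93 at its other probe).

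Cpt2, which acts on the inner membrane, had a log2 ratio of 0.65, 1.00 and 0.89 in RPE, 0.17, 0.08 and 0.56 in CH and -0.34, -0.36 and -0.24 in PR. RPE exceeded PR by 1.16 (adjusted p = 7.16e-05) and CH by 0.57 (adjusted p = 0.0167). The Cpt2 probes were at odds about PR: at the dimmer one RPE minus PR was 0.09 (adjusted p = 0.671) and CH minus PR was -1.22 (adjusted p = 0.000108), against 0.59 at the reported one, while RPE lay above CH at both, by 1.31 at the dimmer one. The dimmer probe lay further upstream in the gene, and the part of probe position was not tested. Slc25a20, the carnitine-acylcarnitine carrier, was higher in RPE than in both other layers, with -0.18, 0.01 and 0.10 in RPE, -0.33, -0.96 and -1.08 in CH and -1.07, -0.66 and -0.85 in PR. Its differences were 0.77 from CH (adjusted p = 0.0183) and 0.84 from PR (adjusted p = 0.0047), and neither passed after median centring.

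The 5 long-chain acyl-CoA synthetases were likewise unequal. Acsl6, a form known from brain and linked to polyunsaturated fatty acids, had a log2 ratio of 1.23, 1.60 and 0.86 in RPE, -0.29, -0.25 and 0.42 in CH and -0.21, -0.25 and -0.27 in PR. The RPE arrays lay above all others, while CH and PR overlapped. Acsl6 had the largest RPE minus CH difference of the 37 genes at their reported probes, 1.27 with an SE of 0.22 (2.41-fold, adjusted p = 0.00312), and it passed an adjusted p of 0.05 under each of the 12 other processing settings and in all 9 fits leaving out 1 array. Its dimmer probe gave 1.38 (adjusted p = 0.00255). The RPE minus PR difference of Acsl6 was 1.48 at the reported probe and 0.75 at the dimmer one, and both passed an adjusted p of 0.05. The CH minus PR difference of Acsl6 was 0.20 (adjusted p = 0.474) and -0.62 (adjusted p = 0.0426) at these probes. Its promoter window is printed above.

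Acsl1, the form abundant in fat, liver and heart, was highest in PR, with 0.45, 0.10 and 0.41, next to -0.40, -0.27 and -0.52 in RPE and -0.99, -1.07 and -0.66 in CH. PR exceeded RPE 1.65-fold (adjusted p = 0.00173). Acsl5, found in mitochondria and endoplasmic reticulum, was lowest in PR, with -2.69, -2.67 and -2.93, and 3.31-fold higher in RPE (adjusted p = 1.9e-05). Acsl4, which prefers arachidonate, was 2.12-fold higher in RPE and 2.58-fold higher in CH than in PR. Acsl3 lay below the reference in every sample, from -2.17 to -0.72, and RPE and PR overlapped (RPE minus PR -0.42, 95% interval -0.99 to 0.15).

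**Figure D4:**
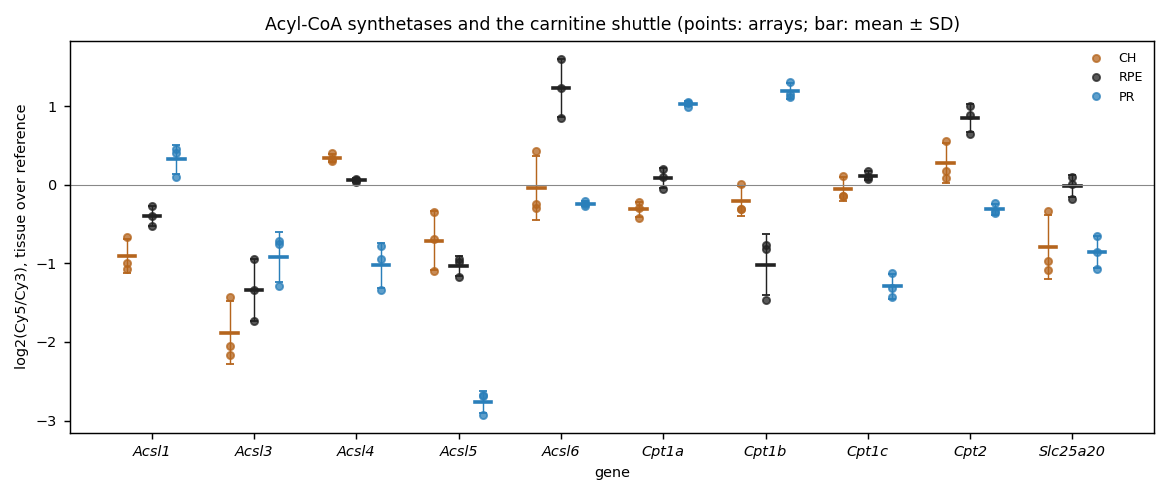
Log2 ratio of Cy5 over Cy3 of the 5 acyl-CoA synthetases and the 5 genes of the carnitine shuttle on each array (points) with mean and SD (bars), n = 3 arrays per tissue. Acsl6 and Cpt2 lie highest in RPE, with means of 1.23 and 0.84, while Acsl1, Cpt1a and Cpt1b lie highest in PR, with means of 0.32, 1.03 and 1.20.

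Cpt1a, Acsl1 and Bdh1, a gene of ketone body metabolism, shared the order PR, RPE, CH, with all 3 steps past the test. The rod markers had this order of mean log2 ratios too, with the values given above, and 1 of the 10 was higher in RPE than in CH at an adjusted p below 0.05. Their part in the RPE minus CH differences of these 3 genes, 0.40, 0.51 and 0.57, was not tested.

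In peroxisomes, 2 genes stood out. Acox2, the branched-chain and bile acid intermediate oxidase, had a log2 ratio of 1.34, 1.09 and 0.67 in CH and of 0.29, 0.45 and 0.37 in RPE, and it was not well above background on any PR array, where the measured values were -2.06, -2.74 and -2.30. It was thus at least 8.16-fold higher in CH and at least 5.23-fold higher in RPE than in PR (adjusted p = 3.32e-07 and 1.88e-06), with the dim PR signal raised to the lowest signal well above background on its array. It was 1 of the 3 genes higher in CH than in RPE (-0.66, adjusted p = 0.0394), a call that 6 of 9 fits leaving out 1 array did not keep. The fibroblast markers above were also higher in CH than in RPE, and their part was not tested. Ehhadh, the bifunctional enzyme and a classical target of peroxisome proliferators, had 0.35, 0.47 and 0.19 in RPE, -0.35, -0.54 and -0.35 in CH and -1.23, -1.08 and -1.50 in PR. The tissues were separate, with RPE 3.05-fold above PR (adjusted p = 3.47e-06) and 1.68-fold above CH (adjusted p = 0.00289).

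The other peroxisomal genes moved little. Hsd17b4, the second bifunctional enzyme, and Acox3, an oxidase of branched chains, were higher in RPE than in PR by 0.71 and 0.59 on the log2 scale (adjusted p = 0.000438 and 0.00166), although the dimmer Acox3 probe gave -0.05 (adjusted p = 0.71). For CH minus PR the Acox3 probes had opposite signs, 0.73 at the reported one (adjusted p = 0.00038) and -0.31 at the dimmer one (adjusted p = 0.0259). Acaa1a, a peroxisomal thiolase, was 1.30-fold higher in RPE than in PR (adjusted p = 0.014). Decr2, the peroxisomal dienoyl-CoA reductase, had means of 0.54 ± 0.21 in RPE and 0.70 ± 0.16 in PR (SD, n = 3) and overlapped between them. Decr2 was lower in CH than in PR (-0.54, adjusted p = 0.00983).

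The genes of ketone body use and of acetoacetyl-CoA each had an order of their own. Bdh1, the mitochondrial enzyme that interconverts acetoacetate and 3-hydroxybutyrate, had a log2 ratio of 0.96, 0.86 and 1.09 in PR, 0.57, 0.51 and 0.32 in RPE and -0.29, -0.18 and 0.16 in CH. The tissues did not overlap, PR lay 1.42-fold above RPE (adjusted p = 0.00998), and all 3 Bdh1 probes gave the same order, with CH minus PR at -1.07 for the reported probe and as far as -1.47 for another. Oxct1, whose enzyme commits acetoacetate to oxidation, was highest in CH, with -0.44, -0.32 and -0.49, next to -0.89, -1.12 and -1.08 in RPE and -1.17, -1.32 and -1.13 in PR. RPE was 1.53-fold lower than CH (-0.61 with an SE of 0.10, adjusted p = 0.00244), and its difference from PR, 0.18, did not pass the test (95% interval -0.05 to 0.40). Acat1, the mitochondrial acetoacetyl-CoA thiolase, was 1.59-fold higher in RPE than in PR (adjusted p = 0.000519) and did not differ from CH beyond the test (0.19, 95% interval -0.06 to 0.43).

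Acot1 and Acot2, thioesterases that free fatty acids from CoA in the cytosol and in mitochondria, had the lowest and the third lowest PR means of the 37 genes. Acot1 had -4.76 and -4.21 in PR, where the spot of replicate 3 carried an outlier mark and was left out, next to -0.20, 0.81 and 0.02 in RPE and -0.17, -0.39 and 0.19 in CH. The RPE minus PR difference was 4.69 with an SE of 0.31 (25.8-fold, adjusted p = 2.24e-06), from 2 PR arrays. Acot2 had -3.14, -2.60 and -2.93 in PR, -0.61, 0.27 and -0.35 in RPE and -0.13, -0.46 and -0.79 in CH, and was 6.30-fold higher in RPE than in PR (adjusted p = 9.7e-06). RPE and CH overlapped for both. The genes are near-identical neighbours on chromosome 12, so hybridisation of one transcript to both probes is possible and was not tested.

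Neither regulator passed the test in any comparison at its reported probe. Ppara, the receptor that drives many of these genes in liver, had 0.96, 1.24 and 0.70 in RPE, 0.61, 0.82 and 0.44 in CH and 0.47, 1.70 and 0.93 in PR. The tissues overlapped, and RPE minus PR was -0.06 with a 95% interval from -0.68 to 0.55. Ppargc1a, a coactivator of mitochondrial genes, had means of 0.15 ± 0.21 in RPE, 0.07 ± 0.23 in CH and 0.10 ± 0.44 in PR (SD, n = 3), and its RPE minus PR interval reached from -0.43 to 0.53. Dimmer probes of both differed: another Ppara probe gave RPE minus CH 0.53 (adjusted p = 0.0161) and CH minus PR -0.86 (adjusted p = 0.00026), and the second Ppargc1a probe gave 0.61 (adjusted p = 0.0106) and -0.99 (adjusted p = 0.000141). That Ppargc1a probe also passed for RPE minus PR, at -0.38 (adjusted p = 0.0394).

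**Figure D5:**
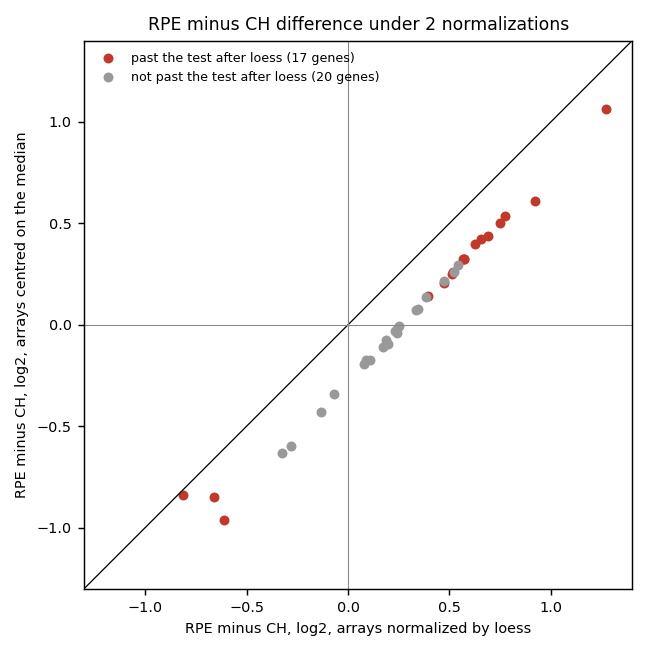
RPE minus CH difference of the mean log2 ratio of each of the 37 genes after loess (horizontal axis) and after centring each array on its median (vertical axis), with the line of equal values and red for the 17 genes past an adjusted p of 0.05 after loess. All 37 points lie below the line, by 0.03 to 0.35, and the 17 red genes keep their sign.

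Further genes of the pathway were counted from 5 related lists of 95 genes, all measured. Among all genes, 25.2% were higher in RPE than in PR and 25.1% in PR, and 10.3% were higher in RPE than in CH and 12.2% in CH. Of 9 ketone body genes, 4 were higher in RPE than in PR and 1 in PR, and 3 were higher in RPE than in CH and 1 in CH (0 and 1 after median centring, 1 and 1 in the series table). Bdh2, a cytosolic dehydrogenase, was 29.5-fold higher in RPE than in PR (adjusted p = 4.79e-08) and 1.97-fold higher in RPE than in CH (adjusted p = 0.00723), the latter not after median centring (adjusted p = 0.108) or in the series table (adjusted p = 0.0653).

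Of 20 other mitochondrial oxidation genes, 19 were higher in RPE than in PR and 0 in PR, adjusted and unadjusted alike in limma, and 11 were higher in RPE than in CH and 1 in CH. Nudt7, a hydrolase of CoA esters known from peroxisomes but counted in this list, was 7.73-fold higher in RPE than in PR (limma adjusted p = 9.14e-08). Eci1, the isomerase for unsaturated chains, was 5.21-fold higher in RPE than in PR (limma adjusted p = 4.01e-06). Of 17 other peroxisomal genes, 11 were higher in RPE than in PR and 2 in PR, and 10 were higher in RPE than in CH and 1 in CH. As with the 37 genes, the counts higher in RPE than in CH depended on the normalization: 2 of the 20 and 1 of the 17 passed the test after median centring, 3 and 1 did in the series table, and 7 and 4 did without CH replicate 2. The count of all probes higher in RPE, given above, fell under these settings too, from 4401 to 770, 728 and 2458 in that order. Ech1, a dienoyl-CoA isomerase, and Abcd3, a fatty acid importer of the peroxisome, were 5.50-fold and 4.90-fold higher in RPE than in PR.

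Of 21 genes of fatty acid uptake and binding, 8 were higher in RPE than in PR and 5 in PR. Between RPE and CH, 2 were higher in RPE and 6 were higher in CH, including Cd36, the scavenger receptor and fatty acid carrier, which had -0.66, -0.72 and -1.27 in RPE and 1.14, 1.21 and 0.77 in CH (3.79-fold, adjusted p = 0.000187), and Fabp4, the binding protein of fat cells and capillary endothelium (3.98-fold, adjusted p = 0.00148). The count of 6 was the same after median centring and in the series table, where 0 of the 21 were higher in RPE. All 6 fibroblast, 3 of 5 pericyte, 3 of 5 pigment cell and 2 of 6 immune cell markers were also higher in CH than in RPE, and their part in these differences was not tested. Of the 7 endothelial markers, 0 were higher in CH than in RPE in limma at an adjusted and also at an unadjusted p below 0.05, and of the 6 adipocyte markers 2 in CH and 1 in RPE were well above background on all 3 arrays. Of 28 regulators and targets, 14 were higher in RPE than in PR and 5 in PR, and 4 were higher in RPE than in CH and 8 in CH (0 and 7 after median centring, 1 and 2 in the series table). Hnf4a, a nuclear receptor known from liver, had 1.09, 1.62 and 1.38 in RPE and -2.99, -3.03 and -3.10 in PR (21.2-fold, adjusted p = 8.69e-08), and Acacb, whose product restrains carnitine palmitoyltransferase 1, was 10.9-fold higher in RPE than in PR (adjusted p = 1.2e-08). The background of the counts after loess is the share of all genes: 25.2% and 25.1% between RPE and PR, and 10.3% and 12.2% between RPE and CH. The counts of all probes after median centring and in the series table are given above.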

How the data were processed

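Total RNA of laser-dissected CH, RPE and PR was amplified, labelled with Cy5 and hybridised with a Cy3-labelled RPE/choroid reference (9 arrays, 3 per tissue). The authors deposited scanner output of Agilent Feature Extraction 9.5.3.1, in which mean signals and median local backgrounds are intensity values as scanned. The scanner software's own ratio of processed intensities, also deposited, is on a log10 scale. The series table of the authors holds log2 values of the Cy5 channel, normalised by steps not given in the sources used here. Both served as alternatives only. The submitters' processing notes name R 2.14.0 and limma.

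Background was corrected with normexp (offset 50), log2(Cy5/Cy3) was normalised by loess within arrays, control spots had weight 0 and 228 to 586 spots with an outlier mark per array were left out. Spots of a probe were averaged. Tissue means were fitted with limma 3.58.1 (R 4.3.3) over all 9 arrays, with moderated tests and Benjamini-Hochberg adjustment over 39429 probes. Limma was tested on simulated data. Samples are separate eyes, and 3 arrays per tissue limit the precision. Nothing in the labels says whether eyes of one mouse were used, so p-values measure the spread between these samples.

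A gene is reported at the probe of its name with the highest mean Cy5 signal. Other probes are given where they differ by over 1 (log2) or in call. The study's methods report RNA integrity numbers that varied within each tissue, and labelling from the 3' end. Their part in differences between probes of a gene was not tested. Of the related lists, at most 2 genes per list and comparison were named, those with the largest difference past the study's cut-offs. Not every gene so selected is reported here. The genes and lists were chosen with earlier results of these data known. Markers were also listed for cones, Müller glia, inner retina, pericytes, pigment cells, slow muscle, red blood cells and immune cells. Array gene names can be old. Promoters and names came from RefSeq (GRCm38.p6), while the probe positions of the files are on mm9 and were not combined with them. The alternatives were other background corrections, normalisations, probe choices, blocks and moderation, and leaving out each array.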

Additional observations from a re-analysis of the deposited data

How the results depend on the processing

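With 3 arrays per tissue, small differences depended on the normalization. For RPE against CH, the count higher in RPE (14) was 1 after median centring and 1 in the series table, and the count higher in CH (3) was 1 in the series table. The count of all probes higher in RPE, given above, fell under both settings too, from 4401 to 770 and 728. The median difference over the genes was 0.0765 after median centring, while in the series table it was 0.32. At the study's cut-offs 1 gene, Acsl6, was higher in RPE both with the median of a gene's probes and with any probe of a gene counted. Against PR, the series table gave 15 genes higher in RPE and a median of 0.59, the slide as a fixed block gave 3 higher in PR (6 in the reported fit), any probe counted gave 14 genes higher in PR than in CH (8 in the reported fit), and the Feature Extraction log ratio gave a CH minus PR median of 0.42. Over all probes, the count higher in RPE than in PR was 6256 of 39287 in the series table and 9783 of 39429 in the reported fit. The count higher in PR was 7345 with the slide as a fixed block and 9985 in the reported fit. The cause of these changes was not tested. Without one array at a time, the counts at an adjusted p below 0.05 ranged from 7 to 14 (higher in RPE than CH, lowest without CH replicate 2), 2 to 4 (higher in CH than RPE), 24 to 25 and 5 to 6 (RPE and PR) and 22 to 22 and 8 to 9 (CH and PR). At the study's cut-offs they ranged from 0 to 1, 0 to 0, 12 to 14, 2 to 2, 9 to 10 and 2 to 4, and the medians from 0.31 to 0.43, 0.71 to 0.82 and 0.52 to 0.64. The other counts and medians stayed within 1.5 times, or within the spread, under each of the other settings.

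Whether replicate numbers pair the samples is not known. Same-numbered arrays had correlations of their deviations between -0.08 and 0.29, and other pairs of arrays between -0.31 and 0.25. With 3 arrays per tissue, and replicate 2 of every tissue on slide 3, these values cannot decide it. With the replicate block, 5 genes in place of 6 were higher in PR than in RPE (Acad9 was lost), and no other call of the 37 genes changed.

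Some differences turned their sign. One of them was a called difference, Cpt2 between CH and PR, which was -0.32 with the median of its probes. The others did not pass the test in the reported fit. After median centring RPE minus CH was -0.11 for Cpt1c, -0.0059 for Acadm, -0.17 for Acad9, -0.17 for Hadha, -0.10 for Hadhb, -0.0382 for Acaa1a, -0.0755 for Acat1, -0.0287 for Acot2, -0.0188 for Etfdh and -0.19 for Ppargc1a, and RPE minus PR was -0.0179 for Acadvl and -0.23 for Ppargc1a. Slc25a20 between CH and PR was -0.28 with the Feature Extraction log ratio, -0.13 in the series table and -0.20 with the slide as a fixed block, where Ppargc1a between RPE and PR was -0.14, -0.14 and -0.23. The series table also gave -0.0243 for Oxct1 (RPE minus PR) and -0.16 for Etfa (CH minus PR). The median of a gene's probes gave 0.0605 for Acox3 (RPE minus CH), -0.21 for Acsl6 and -0.30 for Etfa (CH minus PR) and -0.17 for Ppargc1a (RPE minus PR). Without one array, the ranges were -0.17 to 0.21 for Slc25a20 and -0.0275 to 0.331 for Acsl6 (CH minus PR), -0.0438 to 0.2505 for Acadvl and -0.35 to 0.27 for Ppara (RPE minus PR), -0.0188 to 0.4197 for Acot2 (RPE minus CH), and for Ppargc1a -0.0218 to 0.2014 (RPE minus CH), -0.12 to 0.30 (RPE minus PR) and -0.20 to 0.22 (CH minus PR).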
